A study of Mus musculus with 10 samples.

Results

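Oxidative phosphorylation is the set of reactions by which mitochondria turn the energy of food into ATP. The genes described here encode its 5 enzyme complexes: 103 protein-coding genes of the 35275 rows in the deposited expression table, chosen by name. The rule took every name beginning with Ndufa, Ndufb, Ndufc, Ndufs or Ndufv, with Uqcr or with Atp5, the 4 genes Sdha to Sdhd, the Cox4 to Cox8 names that continue with a, b or c, and every name beginning with mt-. Of the 103, 90 lie in the nuclear genome and 13 in the mitochondrial genome. The name rule brought in the complex I assembly factors Ndufaf1 to Ndufaf7 and Atp5sl, an assembly factor of the same complex, and it left out Cyc1 of complex III and Cox4i1 and Cox4i2 of complex IV, which are given with the other genes of the pathway. The rule uses names only and no expression value, but it was set with earlier results of these data known.

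The tissue was motor cortex, taken from C57BL/6 mice on postnatal day 22, and its RNA was sequenced. The 5 KO libraries came from mice with a conditional deletion of membralin (gene Tmem259), a membrane protein of the endoplasmic reticulum, in astrocytes. The 5 WT libraries came from wild-type mice. The labels call the samples biological repeats and name no animals. The sources used here do not give the line that drives the astrocytic deletion, nor whether the WT mice carried a floxed allele or a Cre transgene. Each library came from tissue that holds all cell types of the cortex. The deletion is thus confined to a cell type that contributes only part of the RNA.

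Complexes I to IV form the respiratory chain of the inner mitochondrial membrane. They pass electrons from NADH and succinate to oxygen and pump protons, except complex II, which pumps none and is also an enzyme of the tricarboxylic acid cycle. Complex V, the ATP synthase, uses the proton gradient to make ATP. In the brain much of this ATP pays for ion pumping at synapses and axons, and neurons rely on it more than astrocytes, which can draw more on glycolysis. Nuclear genes encode most subunits and all of complex II, and the mitochondrial genome encodes the rest of complexes I, III, IV and V, transcribed as long precursors in many copies per cell, so the same complex is built from 2 genomes.

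Levels are in FPKM, fragments per kilobase of gene length scaled to library depth, as deposited. The libraries hold 22968013 to 27567361 fragments in KO and 22793058 to 28827871 in WT. Tmem259 itself measured 20.1, 18.5, 34.4, 16.9 and 26.2 FPKM in KO1 to KO5, against 25.5, 23.8, 25.0, 32.4 and 30.4 FPKM in WT1 to WT5. The library labelled KO3 was the highest of the 10, and the difference between the groups, -0.27 on the log2 scale with an SE of 0.16, missed the threshold (adjusted p = 0.275 by limma, p = 0.262 by an exact permutation test on both sides). Without that library Tmem259 fell by 0.42 on the log2 scale (limma adjusted p = 0.0279). Gfap, the astrocyte filament that marks reactive astrocytes, measured 106 FPKM in the library labelled KO3, against 426 to 673 in the other KO libraries and 79.4 to 114 in WT. Over all genes, by the chi-square distance between fragment counts, the libraries nearest to the one labelled KO3 were WT4 and WT3. Calls that change without that library are given beside the members and lists concerned. Omp, a marker of olfactory tissue, was 5.92 to 10.5 FPKM in KO1 to KO4 and 0.406 FPKM in KO5, against 2.95 and 3.26 FPKM in WT4 and WT3 and 0.228 to 0.270 FPKM in the other WT libraries.

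Most nuclear genes of the pathway stood a little higher in KO cortex, and few of them by enough to pass the test. Of the 90 nuclear members, 87 reached the minimum mean of 0.5 FPKM, and 8 of these rose in KO while 0 fell (limma, Benjamini-Hochberg adjusted p under 0.05 over 14497 genes). The 8 are Cox6b2, Ndufc2, Atp5g1, Ndufv3, Sdhd, Sdha, Uqcrc1 and Uqcrfs1. At 9.20% of the nuclear members, this share lies next to the background, since 9.77% of all tested genes rose and 3.51% fell. At an unadjusted p under 0.05, 29 nuclear members (33.3%) were higher and 0 lower, against 25.1% higher and 7.75% lower among all genes. In 5 nuclear members (5.75%) each KO library exceeded each WT library, which held for 5.7% of all genes too.

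The direction was more uniform than the calls. The log2 fold change, taken on FPKM + 1, was above 0 in 81 of 87 nuclear members (93.1%) and in 69.5% of all tested genes. Its median was 0.13 over the nuclear members and 0.08 over all genes, and 85 of the 87 differed by less than 1.5-fold. These values hold for the deposited scaling, under which the median of all genes itself lay above 0. With median-of-ratios scaling the nuclear median was 0.04 and that of all genes -0.0024, and the share above 0 was not counted. The sum of nuclear members took 0.757% to 0.832% of the fragments in KO libraries (mean 0.794% ± 0.0295, SD, n = 5), against 0.677% to 0.789% in WT libraries (mean 0.725% ± 0.0416, SD, n = 5). These ranges overlap because WT5, at 0.789%, lay above KO1 and the library labelled KO3. In a bulk sample, fewer cells of a type and less RNA per cell cannot be told apart.

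**Figure D1:**
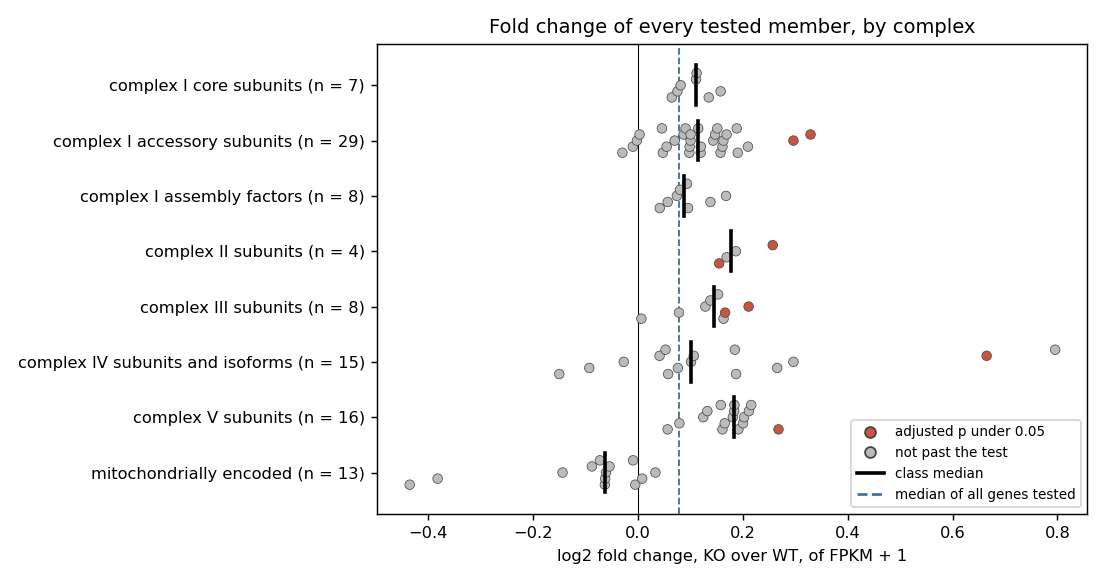
Log2 fold change, KO over WT, of each tested member on log2(FPKM + 1), by class, with genes past the test in red, class medians as black bars and the median of all tested genes (0.08) as a dashed line. The nuclear classes lie mostly to the right of 0, with medians of 0.09 to 0.18, and the mitochondrially encoded genes lie around a median of -0.06.

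The calls depend on single libraries, and so does the background. Leaving out KO1, KO2, the library labelled KO3, KO4 or KO5 gave 2, 0, 19, 0 and 1 nuclear members that rose. Without WT1, WT2, WT3, WT4 or WT5 the count was 0, 1, 1, 5 and 4. The 19 without the library labelled KO3 are the 8 above and 11 more, Cox7a1, Sdhc, Atp5g3, Atp5b, Ndufaf5, Ndufb10, Atp5c1, Atp5f1, Atp5a1, Ndufb7 and Uqcrc2. Over all genes the count of risen genes was 2845 (19.6%) without the library labelled KO3, where 21.8% of the nuclear members rose, and it was 1 without KO2, KO4 or WT1. With the deposited scaling 1417 genes rose and 509 fell, and with median-of-ratios scaling 607 rose and 946 fell. Under the second scaling the nuclear members had a median log2 fold change of 0.04 and 1 of them, Cox6b2, rose. When the mean log2 level of the olfactory bulb markers entered the fit as a covariate, 0 genes rose and 0 fell, 2322 of all genes and 8 nuclear members had an unadjusted p under 0.05, and the nuclear median log2 fold change was 0.13, as without the covariate.

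Complex II, succinate dehydrogenase, had 2 of 4 members that rose and 0 that fell, beside 9.77% of all genes that rose, and its median log2 fold change was 0.18. Of single libraries left out, the one labelled KO3 is the only one without which both calls held. Sdha encodes the flavoprotein that oxidises succinate, Sdhb the iron-sulphur protein, and Sdhc and Sdhd the membrane anchors that bind ubiquinone. Sdhd measured 34.0, 31.7, 28.3, 39.4 and 32.2 FPKM in KO1 to KO5, against 27.2, 27.0, 27.9, 28.1 and 26.9 FPKM in WT1 to WT5. The groups did not overlap, and the KO library nearest to WT was the one labelled KO3. The log2 fold change was 0.26 (SE 0.07, limma adjusted p = 0.0394).

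For Sdha the levels were 140.1, 148, 137, 145 and 144 FPKM in KO1 to KO5, against 127, 129.8, 129.8, 127 and 127 FPKM in WT1 to WT5. The WT libraries were close together and all below the KO libraries (log2 fold change 0.15, SE 0.04, limma adjusted p = 0.0407). An antisense gene, Gm16125, overlaps Sdha, and the library kit is not stated to mark strand. Sdhc averaged 19.8 ± 1.43 FPKM in KO and 17.3 ± 1.07 FPKM in WT (SD, n = 5 each), and Sdhb 80.1 ± 4.93 FPKM in KO and 71.2 ± 4.59 FPKM in WT (SD, n = 5 each). Neither passed (limma adjusted p = 0.0608 for Sdhc and 0.0755 for Sdhb), and Sdhc did without the library labelled KO3 (limma adjusted p = 0.0232). Sdhd lies at chr9:50596338-50603849 and Sdha at chr13:74322254-74350280 (mm10, both on the minus strand).

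The stretches upstream of 3 of the genes that rose are shown because nuclear respiratory genes are known to share short promoter motifs, among them the site of nuclear respiratory factor 1. Each runs 5′ to 3′ from 250 bases before to 50 bases after the annotated start (RefSeq, GRCm38.p6), with matches to GCGCANGC, the core of that site, in capitals.
Sdha, chr13:74350191-74350490, minus strand: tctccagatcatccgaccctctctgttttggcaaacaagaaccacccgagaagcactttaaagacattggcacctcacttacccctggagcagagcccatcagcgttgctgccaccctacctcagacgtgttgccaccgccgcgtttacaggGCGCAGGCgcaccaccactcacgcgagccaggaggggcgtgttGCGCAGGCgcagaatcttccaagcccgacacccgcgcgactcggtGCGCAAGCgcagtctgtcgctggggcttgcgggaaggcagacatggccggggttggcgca
Sdhd, chr9:50603800-50604099, minus strand: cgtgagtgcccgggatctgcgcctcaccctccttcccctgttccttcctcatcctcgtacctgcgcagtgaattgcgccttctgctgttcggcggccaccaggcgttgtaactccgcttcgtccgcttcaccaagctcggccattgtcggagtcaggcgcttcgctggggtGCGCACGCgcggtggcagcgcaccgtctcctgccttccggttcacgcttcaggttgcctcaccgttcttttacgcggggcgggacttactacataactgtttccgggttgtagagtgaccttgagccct
Ndufc2, chr7:97399753-97400052, plus strand: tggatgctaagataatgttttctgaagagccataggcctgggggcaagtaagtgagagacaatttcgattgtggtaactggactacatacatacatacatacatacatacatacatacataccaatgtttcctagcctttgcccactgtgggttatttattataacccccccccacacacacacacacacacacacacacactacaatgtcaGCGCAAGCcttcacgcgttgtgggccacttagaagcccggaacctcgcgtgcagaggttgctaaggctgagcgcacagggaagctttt
The Sdha window holds the motif at 3 places, with first bases at -98, -55 and -10 from the start, the Sdhd window at -79 and the Ndufc2 window at -38.

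Of the 90 nuclear members, 76 matched the RefSeq promoter table, in 82 windows. GCGCANGC or its reverse occurred in 27 of these (32.9%), against 9.95% of the 32851 windows of all genes in the table. AAGATGGC, the core letters of the YY1 site, occurred in 12 windows (14.6%), against 2.75% of all. CCGGAAGT, an ETS family site, occurred in 5 (6.10%), against 3.89%. Both strands were searched and overlapping matches were allowed. Among the 8 members that rose, 4 windows held GCGCANGC (Sdha, Sdhd, Ndufc2 and Uqcrc1) and 0 held either of the others. A match is a run of letters, not a bound site.

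Complex I, NADH dehydrogenase, takes electrons from NADH. Its nuclear subunits comprise 7 core subunits that carry the flavin and iron-sulphur clusters and 29 accessory subunits. Of the 36, 2 rose and 0 fell, beside 9.77% of all genes that rose. In 33 the log2 fold change was above 0, beside 69.5% of all genes, and the median was 0.11. Both that rose are accessory: Ndufc2 belongs to the membrane arm and Ndufv3 to the arm that binds NADH.

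Ndufc2, at chr7:97400003-97407802, measured 60.7, 55.8, 51.1, 59.9 and 59.7 FPKM in KO1 to KO5, against 51.1, 40.4, 44.3, 44.1 and 53.8 FPKM in WT1 to WT5. Of the KO libraries, 4 were above all WT libraries, and the library labelled KO3 was below WT5 (log2 fold change 0.30, SE 0.08, limma adjusted p = 0.0344). Ndufv3, at chr17:31520115-31531326, measured 25.1, 30.9, 23.5, 31.4 and 27.1 FPKM in KO1 to KO5, against 18.2, 20.5, 22.8, 23.1 and 24.1 FPKM in WT1 to WT5. Again 4 KO libraries exceeded all WT libraries and the library labelled KO3 did not (log2 fold change 0.33, SE 0.09, limma adjusted p = 0.0394). Ndufc2 overlaps Gm16053, a gene on the same strand, and 0 of its 705 stretches of 50 transcript bases occur in another gene.

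The next lowest p belonged to Ndufb10, a membrane arm subunit, with 127 ± 10.8 FPKM in KO and 109 ± 6.35 FPKM in WT (SD, n = 5 each; limma adjusted p = 0.0545), and it passed without the library labelled KO3 (limma adjusted p = 0.0376). Among the core subunits the lowest p was that of Ndufv2, an iron-sulphur subunit, with 45.0 ± 2.90 FPKM in KO and 40.3 ± 2.40 FPKM in WT (SD, n = 5 each; limma adjusted p = 0.0870). All 7 core subunits had a log2 fold change above 0, from 0.06 to 0.16, and 0 passed (1 at an unadjusted p under 0.05). The most abundant nuclear complex I transcript was Ndufb9, with 164 ± 11.4 FPKM in KO and 168 ± 25.0 FPKM in WT (SD, n = 5 each), a log2 fold change of -0.03. At the other end Ndufb2 had 1.83 ± 0.280 FPKM in KO and 1.60 ± 0.182 FPKM in WT (SD, n = 5 each). Ndufb2 overlaps Braf, Adck2 and Gm16272, so its level is uncertain.

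The 8 assembly factors, which build complex I and are not part of it, were all positive, beside 69.5% of all genes. Their median log2 fold change was 0.09, and 0 passed (2 at an unadjusted p under 0.05, beside 25.1% of all genes higher). The lowest p among them was that of Ndufaf5, a methyltransferase-like protein that modifies Ndufs7, with 14.0 ± 1.63 FPKM in KO and 12.3 ± 0.733 FPKM in WT (SD, n = 5 each; limma adjusted p = 0.139). Without the library labelled KO3 Ndufaf5 rose by 0.22 on the log2 scale (limma adjusted p = 0.0371). Ndufaf4 followed, with 5.65 ± 0.369 FPKM in KO and 5.04 ± 0.362 FPKM in WT (SD, n = 5 each; limma adjusted p = 0.147). Atp5sl had 9.05 ± 0.808 FPKM in KO and 8.39 ± 0.401 FPKM in WT (SD, n = 5 each; limma adjusted p = 0.326). Levels were lower than those of the subunits, with a median of 8.91 FPKM over the factors, from Ndufaf6 at 3.54 FPKM to Ndufaf3 at 16.6 FPKM, against 52.4 FPKM over the subunits.

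Complex III, the cytochrome bc1 complex, passes electrons from ubiquinol to cytochrome c. Of its 8 members 2 rose and 0 fell, beside 9.77% of all genes that rose. All 8 had a log2 fold change above 0, beside 69.5% of all genes, and the median was 0.15. Uqcrc1, a core protein at chr9:108936648-108949640, measured 113, 111, 109, 117 and 114 FPKM in KO1 to KO5, against 91.9, 102, 103, 103 and 103 FPKM in WT1 to WT5. The groups did not overlap, with WT1 well below the other WT libraries (log2 fold change 0.17, SE 0.05, limma adjusted p = 0.0453).

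Uqcrfs1 encodes the Rieske iron-sulphur protein, which hands electrons on to cytochrome c1, and lies at chr13:30540308-30545362. It measured 51.6, 48.0, 50.2, 55.0 and 51.9 FPKM in KO1 to KO5, against 38.9, 47.4, 42.8, 48.4 and 43.9 FPKM in WT1 to WT5. Only KO2 lay inside the WT range (log2 fold change 0.21, SE 0.06, limma adjusted p = 0.0471). Uqcrc2, the other core protein, averaged 60.7 ± 3.27 FPKM in KO and 54.5 ± 3.10 FPKM in WT (SD, n = 5 each; limma adjusted p = 0.0812), and passed without the library labelled KO3 (limma adjusted p = 0.0479). Mean levels over the 10 libraries ran from 35.5 FPKM for Uqcrb, an accessory subunit, to 122 FPKM for Uqcr11, a small one, and neither passed (limma adjusted p = 0.209 and 0.531).

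Complex V, the ATP synthase, had the highest class median, 0.18, together with complex II. Of its 16 members, 16 had a log2 fold change above 0, beside 69.5% of all genes. Of the 16, 1 rose and 0 fell, beside 9.77% of all genes that rose. At an unadjusted p under 0.05, 9 were higher, beside 25.1% of all genes. The one that rose was Atp5g1, at chr11:96068852-96075670, which measured 22.9, 22.5, 20.7, 23.6 and 25.0 FPKM in KO1 to KO5, against 16.4, 18.1, 18.6, 21.6 and 19.9 FPKM in WT1 to WT5. The library labelled KO3 was below WT4, and the other KO libraries were above all WT libraries (log2 fold change 0.27, SE 0.07, limma adjusted p = 0.0346).

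Atp5g1, Atp5g2 and Atp5g3 encode the same c subunit of the membrane ring and differ in the targeting sequence that is removed on import. The most abundant was Atp5g3, with 166 ± 10.9 FPKM in KO and 144 ± 11.1 FPKM in WT (SD, n = 5 each; log2 fold change 0.21, limma adjusted p = 0.0572). Atp5g2 had 62.5 ± 6.87 FPKM in KO and 54.4 ± 8.33 FPKM in WT (SD, n = 5 each; log2 fold change 0.20, limma adjusted p = 0.196). The 3 genes thus had similar log2 fold changes, and Atp5g1, the least abundant, passed. Atp5g3 did so too without the library labelled KO3 (limma adjusted p = 0.0236). Of the stretches of 50 transcript bases, 11.1% in Atp5g1, 38.35% in Atp5g2 and 0% in Atp5g3 also occur in another gene.

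Atp5f1, subunit b of the stalk that holds the enzyme still, averaged 54.8 ± 2.19 FPKM in KO and 48.3 ± 3.64 FPKM in WT (SD, n = 5 each; limma adjusted p = 0.0540), and passed without the library labelled KO3 (limma adjusted p = 0.0436). Atp5b, the catalytic beta subunit, was the most abundant nuclear member of all. It measured 567, 575, 516, 567 and 561 FPKM in KO1 to KO5, against 448, 516, 503, 504 and 470.4 FPKM in WT1 to WT5. KO1, KO2, KO4 and KO5 were above all WT libraries, the library labelled KO3 was level with WT2, and the difference did not pass (log2 fold change 0.19, SE 0.07, limma adjusted p = 0.0695) unless that library was left out (limma adjusted p = 0.0296). At the low end of the class Atp5s, a coupling factor, averaged 4.72 ± 0.323 FPKM in KO and 4.06 ± 0.577 FPKM in WT (SD, n = 5 each).

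**Figure D2:**
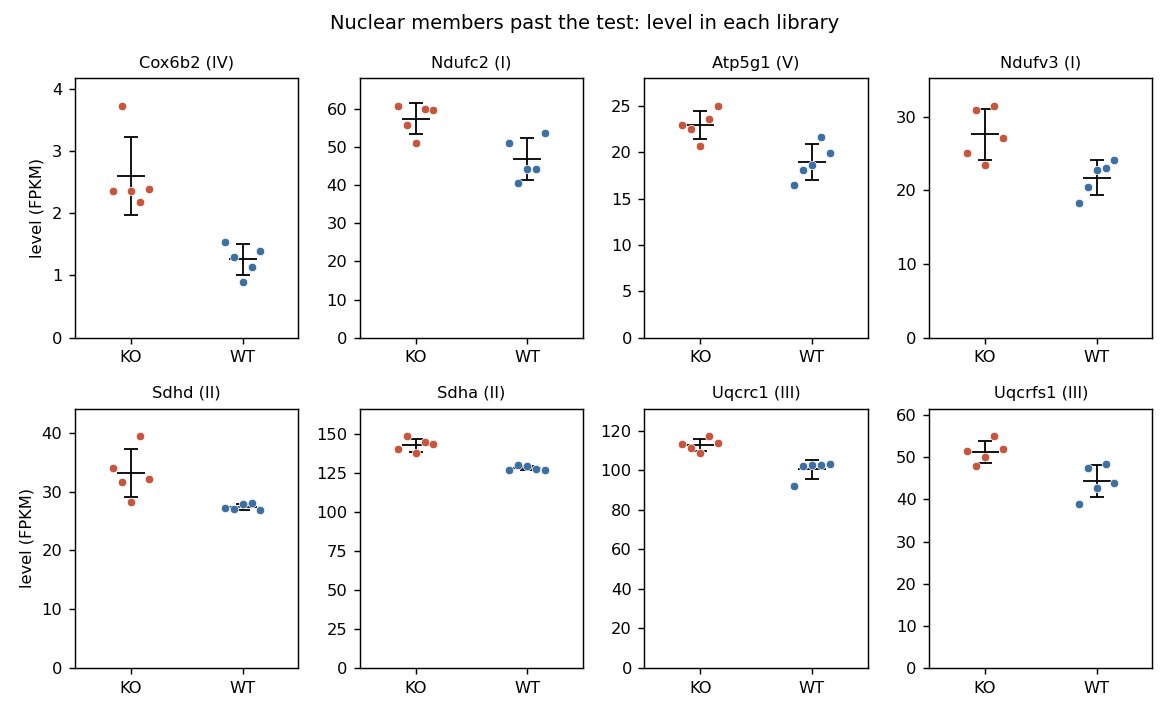
Level in FPKM of the 8 nuclear members that passed the test, with their complex in brackets; each point is a library, with KO left and WT right, and bars give the mean ± SD (n = 5). In Cox6b2, Sdhd, Sdha and Uqcrc1 no KO library overlaps the WT libraries, and Cox6b2 is the only one whose levels are under 4 FPKM.

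Complex IV, cytochrome c oxidase, hands the electrons to oxygen, and several of its subunits exist as a widespread form and a form tied to certain tissues. Of its 18 nuclear members 15 were tested, and 1 rose and 0 fell, beside 9.77% of all genes that rose. The median log2 fold change was 0.10. The one that rose was Cox6b2, known in mammals as the testis form of subunit VIb, at chr7:4751792-4753094. It measured 2.36, 3.72, 2.36, 2.18 and 2.38 FPKM in KO1 to KO5, against 1.54, 1.30, 0.900, 1.14 and 1.39 FPKM in WT1 to WT5. All KO libraries, the one labelled KO3 among them, lay above all WT libraries (log2 fold change 0.67, SE 0.12, limma adjusted p = 0.0182).

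The level of Cox6b2 rests on 12 to 58 fragments per library. Its widespread partner Cox6b1 averaged 185 ± 22.8 FPKM in KO and 163 ± 23.3 FPKM in WT (SD, n = 5 each) and did not pass (limma adjusted p = 0.245). Cox5a, a subunit on the matrix side, had the next lowest p, with 54.3 ± 3.41 FPKM in KO and 45.4 ± 6.70 FPKM in WT (SD, n = 5 each; limma adjusted p = 0.0709). Cox7a1, the heart and muscle form of subunit VIIa, measured 4.68, 8.66, 2.02, 5.99 and 5.98 FPKM in KO1 to KO5, against 1.39, 2.38, 2.77, 1.84 and 4.92 FPKM in WT1 to WT5. Its log2 fold change, 0.80, was the largest of all members and its SE, 0.29, was large as well (limma adjusted p = 0.0847). Without the library labelled KO3, which lay inside the WT range, the change was 1.05 and passed (limma adjusted p = 0.00764).

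The other forms tied to muscle were far below their widespread partners in both groups. Cox7a2, the widespread partner of Cox7a1, averaged 78.2 ± 5.52 FPKM in KO and 74.9 ± 14.4 FPKM in WT (SD, n = 5 each). Cox6a2 averaged 4.72 ± 0.858 FPKM in KO and 5.36 ± 0.978 FPKM in WT (SD, n = 5 each), a log2 fold change of -0.15 that did not pass (limma adjusted p = 0.426). Its partner Cox6a1, the most abundant of the complex, averaged 499.9 ± 15.8 FPKM in KO and 469 ± 64.8 FPKM in WT (SD, n = 5 each). Cox8a averaged 317 ± 22.7 FPKM in KO and 324 ± 43.9 FPKM in WT (SD, n = 5 each), whereas Cox8b was at 0.207 to 0.802 FPKM in KO and 0.103 to 0.575 FPKM in WT, under the filter. Cox7b2, another testis form, was also under the filter, with means of 0.448 FPKM in KO and 0.336 FPKM in WT. Cox8c had 0 fragments in all 10 libraries, which allows up to 0.0506 FPKM over the KO libraries and 0.0482 FPKM over the WT libraries (3 fragments in each group).

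Ndufa4, once counted with complex I and now with complex IV, averaged 213 ± 24.0 FPKM in KO and 205 ± 25.3 FPKM in WT (SD, n = 5 each). Its relative Ndufa4l2, a gene induced by low oxygen, averaged 2.09 ± 0.698 FPKM in KO and 1.49 ± 0.435 FPKM in WT (SD, n = 5 each; limma adjusted p = 0.240), and overlaps Shmt2 on the opposite strand.

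None of the mitochondrially encoded genes passed the test. Of 13 members, 0 rose and 0 fell by limma's adjusted p, 0 had an unadjusted p under 0.05, and 0 were called with limma voom on recovered fragments. Over all genes 9.77% rose and 3.51% fell, and 25.1% were higher and 7.75% lower at an unadjusted p under 0.05. The log2 fold change was below 0 in 11 of 13 and above 0 in 2 (15.4%), beside 69.5% of all genes above 0. Its median was -0.06 and became 0.04 without KO1 and 0.02 without WT5. These 2 libraries stood at the ends: KO1 was the lowest of the 10 in all 13 genes and WT5 the highest in all 13. Over all tested genes KO1 was the lowest in 3.98% and WT5 the highest in 10.2%. Together the 13 genes took 3.73%, 5.77%, 5.25%, 4.91% and 5.42% of the fragments in KO1 to KO5, against 4.91%, 5.08%, 4.37%, 5.18% and 6.22% in WT1 to WT5. The groups overlapped, and KO1 lay below all others.

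**Figure D3:**
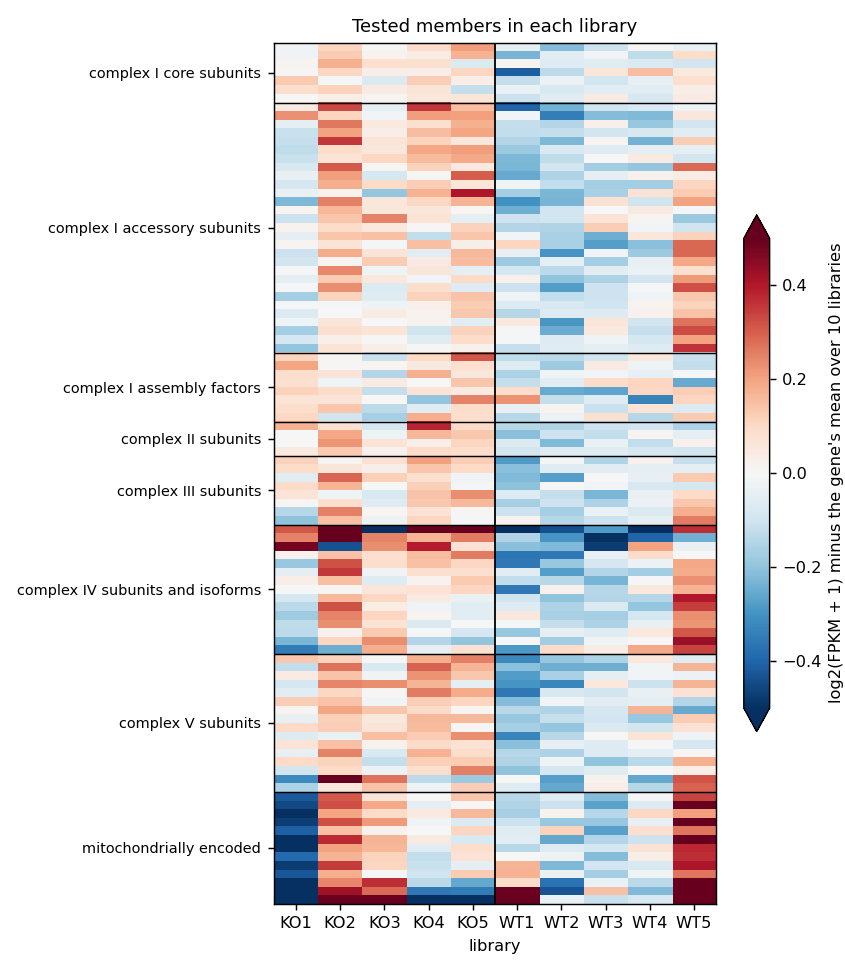
Deviation of each tested member from its own mean over the 10 libraries, on log2(FPKM + 1), with KO libraries left and WT libraries right and members grouped by class. The mitochondrially encoded block is blue throughout in KO1 and red in WT5. WT5 is also the reddest WT library for 58 of 87 nuclear members, and the highest WT library in 20.4% of all tested genes.

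The 7 genes whose transcripts were read at high level were mt-Co1, mt-Nd1, mt-Cytb, mt-Nd2, mt-Nd5, mt-Nd4 and mt-Nd6, with means over the libraries of 2918 to 11308 FPKM. mt-Co1 encodes the catalytic subunit of complex IV, and measured 8442, 12394, 11369, 11239.6 and 12062 FPKM in KO1 to KO5, against 10738, 12151, 9299, 11871 and 13510.4 FPKM in WT1 to WT5. KO1 was lowest and WT5 highest, and the rest were intermixed (log2 fold change -0.05, SE 0.18, limma adjusted p = 0.859). mt-Cytb, cytochrome b of complex III, averaged 7032 ± 1233 FPKM in KO and 6842 ± 1079 FPKM in WT (SD, n = 5 each), with a log2 fold change of 0.03.

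The complex I genes of this group are subunits of the membrane arm. mt-Nd1 averaged 7904 ± 1178 FPKM in KO and 8252 ± 1267 FPKM in WT (SD, n = 5 each). For mt-Nd2 the means were 4095 ± 782 FPKM in KO and 4241 ± 652 FPKM in WT, and for mt-Nd4 they were 3332 ± 595 FPKM in KO and 3309 ± 365 FPKM in WT (SD, n = 5 each). mt-Nd5 averaged 3749 ± 585 FPKM in KO and 3966 ± 487 FPKM in WT, and mt-Nd6 2852 ± 587 FPKM in KO and 2985 ± 539.5 FPKM in WT (SD, n = 5 each). mt-Nd5 and mt-Nd6 overlap on opposite strands, and without strand their fragments may be mixed. The adjusted p of these 5 genes ran from 0.705 to 0.985.

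The remaining 6, mt-Co2, mt-Atp6, mt-Co3, mt-Nd4l, mt-Nd3 and mt-Atp8, were far lower, with means of 3.78 to 149 FPKM. The lowest of the 7 abundant genes was 19.6 times the highest of these 6. mt-Co2, mt-Co3, mt-Atp6, mt-Nd4l and mt-Nd3 have a copy in the nuclear genome, on chromosome 1, annotated as unprocessed pseudogenes. Over the bases that could be aligned, each copy was identical to its mitochondrial gene, so a read that lies within it could come from either. mt-Atp8, which lies between mt-Co2 and mt-Atp6, overlaps mt-Atp6. On chromosome 1 the mt-Atp6 copy ends at 24614651 and the mt-Co2 copy starts at 24614885. Of the stretches of 50 transcript bases of mt-Atp8, 0 of 155 occur in another gene, but only transcripts were searched. Whether a copy of mt-Atp8 lies between those copies was not tested.

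The first 120 bases of mt-Co2 and of its copy Gm28661 are shown with a stretch of mt-Co1 and its copy Gm29216 (GENCODE M21 transcripts, GRCm38, 5′ to 3′). The first pair has no differing base, and the second has 1, in capitals.
mt-Co2, chrM:7013-7132, plus strand: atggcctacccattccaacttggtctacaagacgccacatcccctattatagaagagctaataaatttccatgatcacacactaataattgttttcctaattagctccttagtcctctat
Gm28661, chr1:24615446-24615565, minus strand: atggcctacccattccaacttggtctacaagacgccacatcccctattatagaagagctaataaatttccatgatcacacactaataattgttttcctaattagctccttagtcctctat
mt-Co1, chrM:6390-6509, plus strand: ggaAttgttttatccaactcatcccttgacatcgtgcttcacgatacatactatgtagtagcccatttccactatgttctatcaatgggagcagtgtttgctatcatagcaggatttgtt
Gm29216, chr1:24616069-24616188, minus strand: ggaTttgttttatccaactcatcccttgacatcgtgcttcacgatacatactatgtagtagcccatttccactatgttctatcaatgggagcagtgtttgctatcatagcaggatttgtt
The mt-Co1 copy covers 483 aligned bases of a gene of 1545 bases, and the mt-Nd4 copy, Gm28439, 876 of 1378. Of their stretches of 50 transcript bases, 51.1% in mt-Co1 and 62.2% in mt-Nd4 also occur in another gene.

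The deposited table gives fragments to these copies as well. Of the fragments given to mt-Co2 or Gm28661, Gm28661 received 54.1% ± 0.363 in KO and 54.6% ± 0.681 in WT (SD, n = 5 each). For mt-Co3 the copy's share was 51.1% ± 0.627 in KO and 50.9% ± 0.662 in WT, and for mt-Nd4l 54.0% ± 1.29 in KO and 53.8% ± 2.20 in WT (SD, n = 5 each). The copies of mt-Atp6 and mt-Nd3 received more, 67.2% ± 1.35 and 82.8% ± 2.93 in KO against 66.1% ± 1.45 and 81.0% ± 3.49 in WT (SD, n = 5 each). By contrast the partial copies took 1.25% in KO and 1.44% in WT for mt-Nd4, and 0.319% in KO and 0.336% in WT for mt-Co1. How the authors treated fragments with more than 1 place in the genome is not given in the sources used here, so the levels of the 7 genes with a copy are uncertain.

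**Figure D4:**
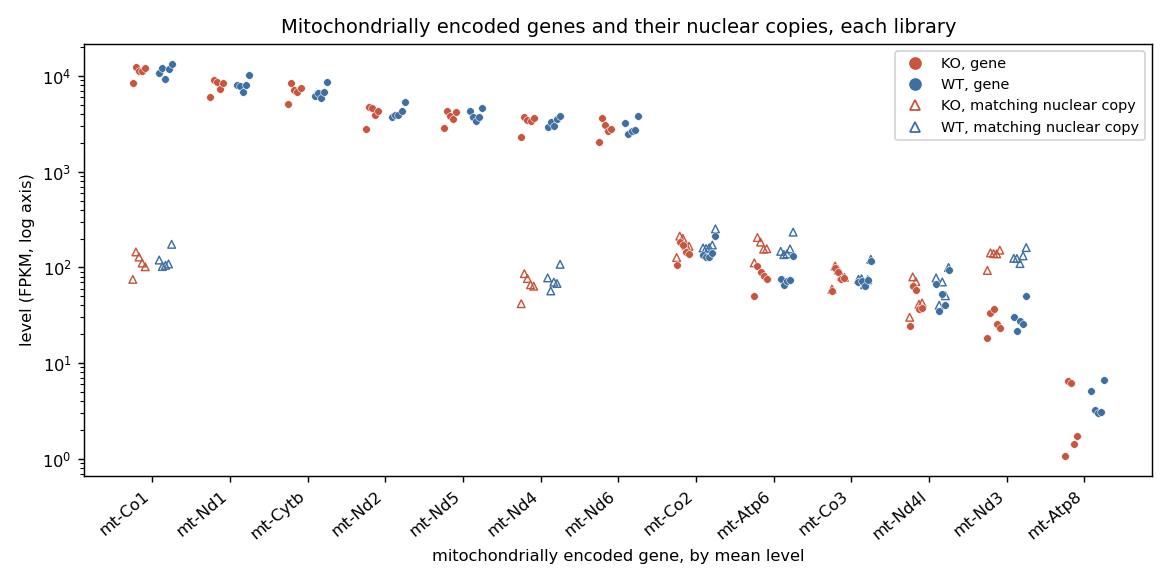
Level in FPKM, on a log axis, of the 13 mitochondrially encoded genes (dots) and of their nuclear copies where one was matched (triangles), in each KO library (left) and WT library (right). The 7 abundant genes lie at 2918 to 11308 FPKM on average, and mt-Co2, mt-Co3 and mt-Nd4l lie at about the level of their copies.

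The largest shifts were in genes of this low group, and none passed. mt-Nd4l, a membrane subunit of complex I, measured 24.2, 64.5, 58.5, 37.1 and 37.4 FPKM in KO1 to KO5, against 67.7, 35.3, 53.0, 40.9 and 94.8 FPKM in WT1 to WT5. The values were scattered and the groups overlapped (log2 fold change -0.38, SE 0.29, limma adjusted p = 0.378). mt-Atp8, a membrane subunit of complex V, measured 1.07, 6.44, 6.13, 1.41 and 1.71 FPKM in KO1 to KO5, against 5.14, 3.23, 3.01, 3.10 and 6.59 FPKM in WT1 to WT5. It rests on 6 to 35 fragments a library, and KO2 and the library labelled KO3 were level with WT5 (log2 fold change -0.44, SE 0.36, limma adjusted p = 0.425).

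mt-Nd3, the next by p, averaged 27.5 ± 7.44 FPKM in KO and 30.9 ± 11.1 FPKM in WT (SD, n = 5 each; log2 fold change -0.14, limma adjusted p = 0.676). Its change turned to 0.04 without WT5. mt-Co2, which binds cytochrome c, averaged 148 ± 30.0 FPKM in KO and 149.6 ± 36.5 FPKM in WT (SD, n = 5 each). mt-Co3, the third catalytic-core subunit of complex IV, averaged 79.5 ± 15.4 FPKM in KO and 79.6 ± 20.9 FPKM in WT (SD, n = 5 each). mt-Atp6, the proton channel subunit of complex V, averaged 79.7 ± 19.7 FPKM in KO and 83.6 ± 26.5 FPKM in WT (SD, n = 5 each).

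The balance between transcripts of the 2 genomes overlapped between the groups. The summed FPKM of the mitochondrial members was 4.60, 6.37, 6.24, 5.60 and 6.17 times that of the nuclear members in KO1 to KO5, against 6.62, 6.56, 5.61, 6.48 and 6.98 times in WT1 to WT5. The mean ratio was 5.80 ± 0.731 in KO and 6.45 ± 0.506 in WT (SD, n = 5 each). KO2, KO5 and the library labelled KO3 lay between WT3 and WT4, KO4 was level with WT3, and KO1 was lowest. A ratio over chosen members was given no test.

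**Figure D5:**
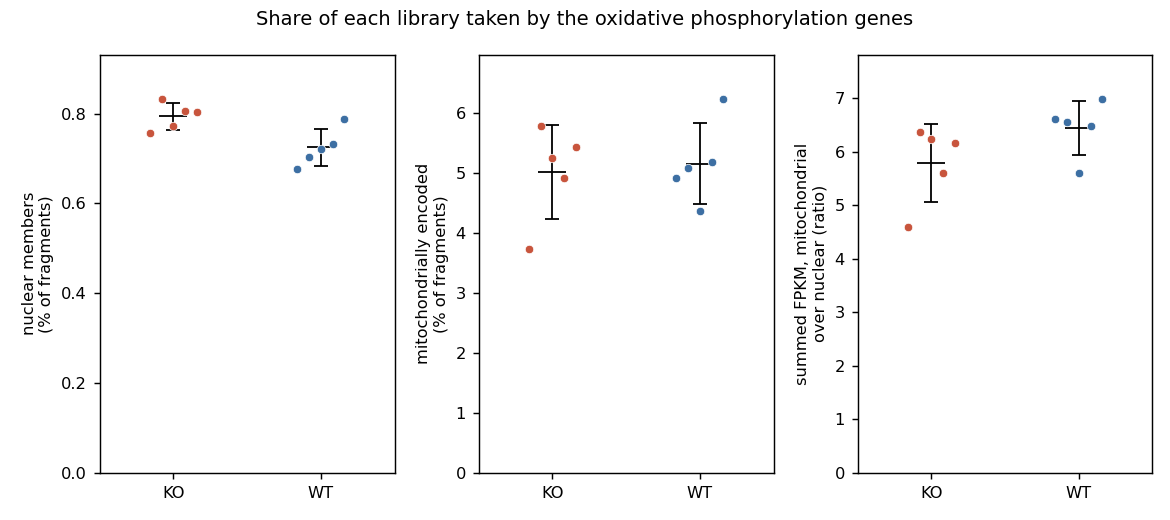
Percent of fragments from nuclear and from mitochondrially encoded members and the ratio of their summed FPKM, with each library as a point, KO left and WT right, and bars at the mean ± SD (n = 5). Nuclear members averaged 0.794% in KO and 0.725% in WT, and the mitochondrial share and the ratio overlap between the groups.

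WT5 also stood apart by gene length. Among the 87 nuclear members, which have a median length of 1001 bases against 3078 over all genes, the deviation of WT5 from the WT mean correlated with log2 length at r = -0.60 (over 14497 genes, r = -0.27). These are correlations across genes, which share the libraries and are not independent. WT5 was the highest WT library in 37 of the 44 members of up to 1001 bases and in 21 of the 43 longer ones. Over all tested genes it was the highest WT library in 20.4%. The fold change itself correlated with length at r = -0.03 in the nuclear members. Of the shorter members 2 rose, and of the longer ones 6. Subtracting a length trend in each library left a nuclear median of 0.03 and 1 call, Cox6b2. That step also removed shifts shared by all genes of a library. The median of all genes went from 0.08 to 0.0025, and over all genes 592 rose and 705 fell. The part of gene length in the nuclear changes was not tested. 

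In other lists of genes that work with the pathway, the share that rose lay between 0% and 33.3%, beside 9.77% of all genes. Of 14 tested carriers and subunits outside the name rule, 3 rose and 0 fell, with a median log2 fold change of 0.11. They were Cyc1, cytochrome c1 of complex III, with 94.5 ± 3.90 FPKM in KO and 81.6 ± 4.26 FPKM in WT, Cycs, cytochrome c, with 31.2 ± 2.43 FPKM in KO and 27.0 ± 0.550 FPKM in WT, and Higd1a, a protein that binds complex IV, with 23.6 ± 1.42 FPKM in KO and 20.5 ± 0.848 FPKM in WT (SD, n = 5 each; limma adjusted p = 0.0274, 0.0381 and 0.0359). Cox4i1, the main form of subunit IV, averaged 326 ± 27.7 FPKM in KO and 328 ± 45.7 FPKM in WT (SD, n = 5 each; limma adjusted p = 0.984).

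Of 32 tested assembly factors outside the rule, 3 rose and 0 fell: Cox14 and Coa3, which act on complex IV, by 0.23 and 0.21 on the log2 scale, and Foxred1, which acts on complex I, by 0.23 (limma adjusted p = 0.0299, 0.0410 and 0.0478). In the tricarboxylic acid cycle and pyruvate dehydrogenase 3 of 21 rose and 0 fell, namely Ogdh, Fh1 and Mdh2, by 0.24, 0.18 and 0.25 (limma adjusted p = 0.0338, 0.0368 and 0.0418). Among 21 mitochondrial carriers, porins and import proteins 7 rose (33.3%, beside 9.77% of all genes) and 0 fell, with a median of 0.16. The lowest p there were those of Slc25a5, an ADP/ATP carrier, Slc25a22, a glutamate carrier, and Slc25a11, the oxoglutarate carrier, which rose by 0.27, 0.44 and 0.24 (limma adjusted p = 0.0186, 0.0277 and 0.0280).

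Of 76 tested mitochondrial ribosomal proteins 8 rose and 0 fell, with a median log2 fold change of 0.13, and those with the lowest p, Mrpl27, Mrps23 and Mrpl4, by 0.27, 0.22 and 0.29 (limma adjusted p = 0.0194, 0.0250 and 0.0292). Of 80 cytosolic ribosomal proteins 4 rose and 0 fell, Rpl15, Rpl29, Rpl7 and Rplp0, by 0.24, 0.58, 0.19 and 0.25, and the median was 0.07. Among 24 genes for transcription, replication and RNA handling of the mitochondrial genome 1 rose, Hsd17b10, a subunit of mitochondrial RNase P, by 0.39 (limma adjusted p = 0.0375), and 0 fell. Of 14 regulators of nuclear respiratory genes 0 passed (2 at an unadjusted p under 0.05), and the lowest adjusted p was 0.0580, for Gabpa, an ETS factor, with 4.13 ± 0.245 FPKM in KO and 3.50 ± 0.195 FPKM in WT (SD, n = 5 each). Gabpa overlaps Atp5j on the opposite strand. Without the library labelled KO3, 19.6% of all genes rose. The counts that rose were then 5 of the 14 carriers and subunits, 7 of the 32 assembly factors and 8 of the 21 cycle genes. Of the 21 carriers and import proteins 10 rose and 1 fell. In the ribosomal lists 20 of the 76 mitochondrial and 8 of the 80 cytosolic proteins rose. So did 4 of the 24 genes for handling the mitochondrial genome and 1 of the 14 regulators.

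Calls in the lists of cell and tissue markers were uneven. Over all genes 9.77% rose and 3.51% fell, and 25.1% were higher and 7.75% lower at an unadjusted p under 0.05. Summed over 8 genes, interneuron markers were at 408 to 713 FPKM in KO and 283 to 377 FPKM in WT, with Gad1, Slc32a1 and Gad2 leading the 5 that rose and Pvalb the 1 that fell. Excitatory neuron markers, 6 genes, were at 1396 to 1529 FPKM in KO and 1548 to 1863 FPKM in WT. Of the 6, 0 rose and 2 fell, Camk2a among them. Of 10 general neuron markers Eno2 and Tubb3 rose and 0 fell, while 7 had a log2 fold change below 0 (2 at an unadjusted p under 0.05). Their sums overlapped, 1855 to 2061 FPKM in KO and 1860 to 2073 FPKM in WT. The 10 olfactory bulb markers were at 122 to 224 FPKM in KO and 49.7 to 119 FPKM in WT (Th, Pcp4l1, Reln and Trh rose), and the 8 striatal ones at 488 to 631 FPKM in KO and 202 to 621 FPKM in WT (Pdyn, Penk, Tac1 and Ppp1r1b rose).

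Among glia, 7 of 7 tested reactive astrocyte markers rose, beside 9.77% of all genes, led by Cd44, Vim and Gfap. The sums of this list were 132 to 813 FPKM in KO and 99.5 to 139 FPKM in WT. Of 8 astrocyte markers Aqp4 rose, 0 fell and 4 had a log2 fold change below 0 (1 at an unadjusted p under 0.05; sums 888 to 1123 FPKM in KO and 969 to 1109 FPKM in WT), and of 8 microglial ones C1qa and Aif1 (sums 145 to 199 FPKM in KO and 121 to 149.5 FPKM in WT). Oligodendrocyte markers, at 1270.0 to 1863 FPKM in KO and 1658 to 2052 FPKM in WT, and those of their precursors, at 129.6 to 158 FPKM in KO and 147 to 161 FPKM in WT, had 0 calls. All 7 oligodendrocyte markers had a log2 fold change below 0, with a median of -0.28. Of these, 6 had an unadjusted p under 0.05, beside 7.75% of all genes lower. Without the library labelled KO3 6 of these 7 fell, and of the 6 precursor markers 1 rose and 2 fell. In that fit 2845 (19.6%) of all 14522 tested genes rose and 924 fell. Endothelial (64.1 to 95.6 FPKM in KO, 68.8 to 81.6 FPKM in WT), pericyte (77.6 to 97.3 FPKM in KO, 74.5 to 83.8 FPKM in WT) and blood markers (11.6 to 57.2 FPKM in KO, 9.84 to 64.3 FPKM in WT) had 0 as well. In the meningeal fibroblast list 5 of 8 rose, Aldh1a2, Ogn, Fmod, Lum and Slc6a13 (sums 40.3 to 81.2 FPKM in KO and 31.0 to 47.2 FPKM in WT), and in the ependymal list Foxj1 (sums 10.6 to 178 FPKM in KO and 22.7 to 133 FPKM in WT). Without the library labelled KO3, 8 of the 8 meningeal, 4 of the 8 microglial, 2 of the 8 astrocyte and 3 of the 10 neuron markers rose, 2 neuron markers and 1 endothelial marker fell, and 1 excitatory neuron marker rose. In none of these lists was a gene at 0 in every library. The part of cell and tissue makeup in the levels of the oxidative phosphorylation genes was not tested.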

How the data were processed

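Per the labels' protocols, total RNA from motor cortex was made into libraries with the NEBNext Ultra RNA kit. The authors deposited 1 table of FPKM values per gene on mm10, per the submitters' processing notes, which name DESeq2; the sources used here name no aligner, counter or annotation. Multiplying each FPKM by gene length gave whole fragments in 100% of values (within 0.02), and their sums are the depths given above, which set counting error only.

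Genes averaging 0.5 FPKM or more over the libraries were tested on log2(FPKM + 1) with limma 3.58.1 (R 4.3.3, lmFit, and eBayes with a trend) in all 10 libraries, with no covariate and Benjamini-Hochberg adjustment; a gene was called at an adjusted p under 0.05. Fold changes on this scale understate those of low genes. The exact permutation test of Tmem259 used all 252 assignments. The members, lists and tests were chosen with earlier results of these data known. Named were all called members, the 3 lowest p, highest and lowest level in each class, all mitochondrially encoded genes and the isoform pairs. The called genes of each list were named too, or the 3 lowest p where more than 5 were called. Of the excitatory neuron markers called, only Camk2a was named. For all 103 members, sequence shared with other genes was sought in GENCODE release 21 (M21) transcripts. Overlaps were sought among the gene coordinates of the deposited table. Other pseudocounts, filters, scalings, variance models, covariates and libraries left out were tried. The labels state biological repeats and name no animals, so p-values measure the spread between these samples. This fit was also run on simulated counts, which had the same spread for all genes and no shifts between libraries besides depth. They differ in this from the data here, so they do not bear on the calls.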

Additional observations from a re-analysis of the deposited data

Results flagged for a closer look

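In 20 of the 204 groups examined (each member's 5 KO or 5 WT libraries), 1 library lay farther from the others than the gap criterion of Dixon allows at 95%, a gap above 0.71 of the group's range. Chance flags about 1 group in 20, members share libraries, and no cause was tested. WT5 accounted for 10 of the flags and was the highest WT library in each. It measured 76.26 FPKM for Atp5j2, 330.5 FPKM for Cox5b, 70.39 FPKM for Cox6c, 100.5 FPKM for Cox7a2 and 109.5 FPKM for Ndufa5. It also measured 23.23 FPKM for Ndufb4, 212.8 FPKM for Ndufb9, 130.5 FPKM for mt-Atp6, 214.1 FPKM for mt-Co2 and 116.4 FPKM for mt-Co3. WT1 was the lowest WT library for Atp5sl at 7.692 FPKM, Ndufab1 at 9.215 FPKM and Uqcrc1 at 91.92 FPKM, and WT4 the highest for Ndufaf5 at 13.56 FPKM.

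Among KO libraries, KO1 was the lowest for Ndufb9 at 144.2 FPKM and for mt-Nd4 at 2299 FPKM. KO2 was the highest for Cox6b2 at 3.72 FPKM and for Ndufs4 at 21.55 FPKM. The library labelled KO3 was the lowest for Atp5b at 515.9 FPKM and for Atp5l at 84.86 FPKM. Cox6b2 and Uqcrc1 are the 2 of these genes that rose in KO. Without KO2 the log2 fold change of Cox6b2 was 0.56 and its limma adjusted p 0.0516, in a fit that called 2 genes in all, and without WT1 that of Uqcrc1 was 0.13 (limma adjusted p = 0.0979).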

How the results depend on the processing

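The median log2 fold change stayed above 0 for the nuclear members, at 0.03 to 0.17 over the 32 alternatives, and lay between -0.19 and 0.05 for the mitochondrially encoded members. Over all genes 1926 were called, against 465 with no filter on low values, 3557 with library weights, 0 with the olfactory bulb covariate, and 1041 with that covariate and without the library labelled KO3, an alternative chosen after seeing the data. Leaving out 1 library, or the one labelled KO3 and 1 further, gave 2 to 3769. The 8 nuclear members that rose became 1 with no filter, with median-of-ratios scaling or with a gene length correction, 3 without the variance trend, 21 with library weights, 0 with the olfactory bulb covariate, 3 with it and without the library labelled KO3, and 0 to 23 over the fits that left out libraries. No nuclear member was called lower in any alternative. Of the mitochondrially encoded members, 0 were called, and 0 to 1 over the fits that left out libraries: mt-Atp8 without KO2 and the library labelled KO3 (log2 fold change -1.08, limma adjusted p = 0.00602). Cox6b2 passed in 27 of 31 alternatives, Ndufc2 in 20, Atp5g1 in 19, Ndufv3 in 17, Sdhd in 16, Sdha and Uqcrc1 in 14 and Uqcrfs1 in 11 of 32. Atp5sl turned to -0.0052 with the gene length correction, and mt-Nd3, -0.14 in all libraries, ranged from -0.396 to 0.0399 over the fits that left out libraries. The cause was not tested.

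Of the same-numbered KO and WT libraries, 3 of 5 pairs had deviations correlated above 0.1 and 2 below 0 (0.138, -0.0428, -0.0574, 0.139 and 0.114), and for 2 of 5 KO libraries the same-numbered WT library was the best match. The labels do not say that a number marks a shared litter or day, so the numbers were not used to pair libraries. With the replicate number as a block, a replicate block, 1271 genes were called in all and 4 nuclear members were called higher. Depth limits the low genes most: Cox6b2 rests on 12 to 58 fragments and mt-Atp8 on 6 to 35.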

Other observations

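The libraries kept a loose order across the nuclear members. KO2 was the highest of the 10 libraries in 29 of 87 and WT5 in 21, while over all tested genes KO2 was the highest in 11.7% and WT5 in 10.2%. WT1 was the lowest of the 10 in 33 of 87 nuclear members and in 16.0% of all genes. Within KO, KO1 was the lowest library in 44 of the 87 and KO2 the highest in 38, beside 11.4% and 16.9% of all genes.

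Of the 103 members, 29 overlap another gene of the deposited table and 8 share over 50% of their stretches of 50 bases with another gene. These 8 are mt-Co2, mt-Co3, mt-Atp6, mt-Nd4l, mt-Nd3, mt-Nd4, mt-Co1 and Ndufaf2, the last with the noncoding gene B230220B15Rik. Of the members that rose, Ndufc2 and Sdha are among the 29 that overlap another gene.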
